A study of Rattus norvegicus with 24 samples.

Results

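The genes followed here were 10 endothelial and angiogenic genes, Emcn, Tek, Erg, Esam, Cldn5, Angpt1, Angpt2, Vegfa, Kdr and Flt1. They were taken by symbol and not by a measured value, but they were named with earlier results of these data known. Of these, 9 were measured by 1 transcript cluster each, out of 14324 genes that had a cluster in the whole series, and Kdr was not analysed here. Affymetrix rat arrays had been hybridised with RNA from cortex and medulla of 12 male Wistar rats, so that each animal gave both tissues and the series holds 24 arrays. The 6 lithium rats ate food with 40 mmol lithium per kg for 7 days and with 60 mmol per kg thereafter, to 6 months in all, and were given a salt block. The 6 control rats ate the standard diet over the same 6 months. Each array came from 1 animal, and the tissues were dissected portions of whole kidney that hold tubules, vessels and interstitium together.

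The lining of blood vessels is made by endothelial cells, which in the renal medulla form the vasa recta and in the cortex the glomerular and peritubular capillaries. Endothelial growth and quiescence are governed by vascular endothelial growth factor, which acts through the receptors KDR and FLT1, and by the angiopoietins, which act through the receptor TIE2 encoded by Tek. ANGPT1 activates TIE2, while ANGPT2 can oppose it and is a known product of endothelial cells in remodelling vessels. ERG, a transcription factor of the ETS family, maintains endothelial identity and junctions.

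Because ERG binds ETS-type motifs and several of these genes are known endothelial genes, the promoters of Emcn, Erg, Flt1 and Cldn5 are shown. They are the RefSeq sequences of GRCr8 in windows of 300 bases that span the gene start, written 5′ to 3′ along the gene, and capitals mark each occurrence of AGGAAG or its complement CTTCCT. RefSeq sequences of Vegfa and Kdr were also read. Those of Tek, Esam, Angpt1 and Angpt2 were not.

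Emcn, chr2:228564289-228564588, plus strand: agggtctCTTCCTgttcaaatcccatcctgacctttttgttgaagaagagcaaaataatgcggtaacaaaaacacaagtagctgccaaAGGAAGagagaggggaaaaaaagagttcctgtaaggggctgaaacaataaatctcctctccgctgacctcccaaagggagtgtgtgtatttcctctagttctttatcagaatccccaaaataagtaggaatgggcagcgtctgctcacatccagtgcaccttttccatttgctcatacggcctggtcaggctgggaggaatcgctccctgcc

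Erg, chr11:48251517-48251816, minus strand: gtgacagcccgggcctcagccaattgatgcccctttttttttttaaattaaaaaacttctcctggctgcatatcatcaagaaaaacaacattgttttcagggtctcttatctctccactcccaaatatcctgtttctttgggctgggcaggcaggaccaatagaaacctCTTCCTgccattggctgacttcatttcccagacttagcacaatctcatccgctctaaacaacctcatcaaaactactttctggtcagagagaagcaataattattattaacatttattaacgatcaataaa

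Flt1, chr12:12333180-12333479, plus strand: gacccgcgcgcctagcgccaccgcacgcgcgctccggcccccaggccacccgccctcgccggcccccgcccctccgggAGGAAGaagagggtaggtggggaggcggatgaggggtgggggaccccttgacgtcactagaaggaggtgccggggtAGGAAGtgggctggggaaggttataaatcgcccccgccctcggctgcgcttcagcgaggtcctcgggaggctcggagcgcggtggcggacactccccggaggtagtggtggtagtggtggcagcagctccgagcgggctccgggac

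Cldn5, chr11:95718549-95718848, minus strand: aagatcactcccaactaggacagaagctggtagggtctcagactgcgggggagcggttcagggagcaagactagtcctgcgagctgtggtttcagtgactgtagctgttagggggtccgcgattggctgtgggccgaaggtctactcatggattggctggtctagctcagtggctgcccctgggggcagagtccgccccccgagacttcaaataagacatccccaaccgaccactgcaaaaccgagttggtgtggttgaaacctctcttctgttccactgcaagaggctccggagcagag

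The motif AGGAAG, searched on both strands, occurred 2 times in the Emcn promoter, 1 time in that of Erg and 2 times in that of Flt1. It occurred 0 times in that of Cldn5 and 0 times in both Vegfa windows. Of 33469 promoters of the same length, 34.5% held it, so a match is frequent and describes these letters only. A second motif, CCGGAA with its complement TTCCGG, shares the letters GGAA with the first but cannot lie on the same copy of them. It was found 2 times in the Kdr promoter and in none of the other windows read, against 15% of all promoters.

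Lithium-treated medulla had lower signal of Emcn and higher signal of Cldn5, and these 2 of 9 genes passed the adjusted test. Emcn fell by 0.91 on the log2 scale, which is a 1.88-fold decrease, and Cldn5 rose by 0.54, which is a 1.45-fold increase. Across all 16025 clusters tested in medulla, 1.19% passed, 0.83% higher and 0.356% lower. A further 5 genes, Tek, Erg, Esam, Angpt2 and Flt1, had lower mean signal in lithium-treated medulla at an unadjusted p under 0.05, where 10.5% of all clusters lay (and 9.09% were higher), but did not pass after adjustment. In cortex none of the 8 genes tested passed. In bulk tissue, fewer cells of a type cannot be told apart from less RNA per cell.

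The scan date effect had been removed from the values by the authors, so the comparison was fitted with limma with the recovered scan groups as a covariate. This left 8 residual degrees of freedom in medulla. Some arrays stood apart. The cortex array of lithium animal 17 equalled the mean of the other 5 lithium cortex arrays to within 8e-05 on the log2 scale. Lithium-treated cortex was therefore counted as 5 animals in means, ranges and the fit with scan groups, where this array forms a group alone. Fits without the scan groups kept it as a further lithium array, except the replicate block. In medulla, control animals 15 and 30 differed from the other controls in markers of other cell types, and lithium animal 6 lay nearest the controls for several genes. Counts are given with these arrays and, where it alters them, without. Without the scan groups, 7 of the 9 genes passed in medulla (6 lower and 1 higher), against 6.56% of all clusters (3.24% lower and 3.33% higher). That fit counts 10 residual degrees of freedom, more than values with scan date removed still hold. Its p-values are therefore too small, here and wherever a result without the scan groups is given.

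**Figure D1:**
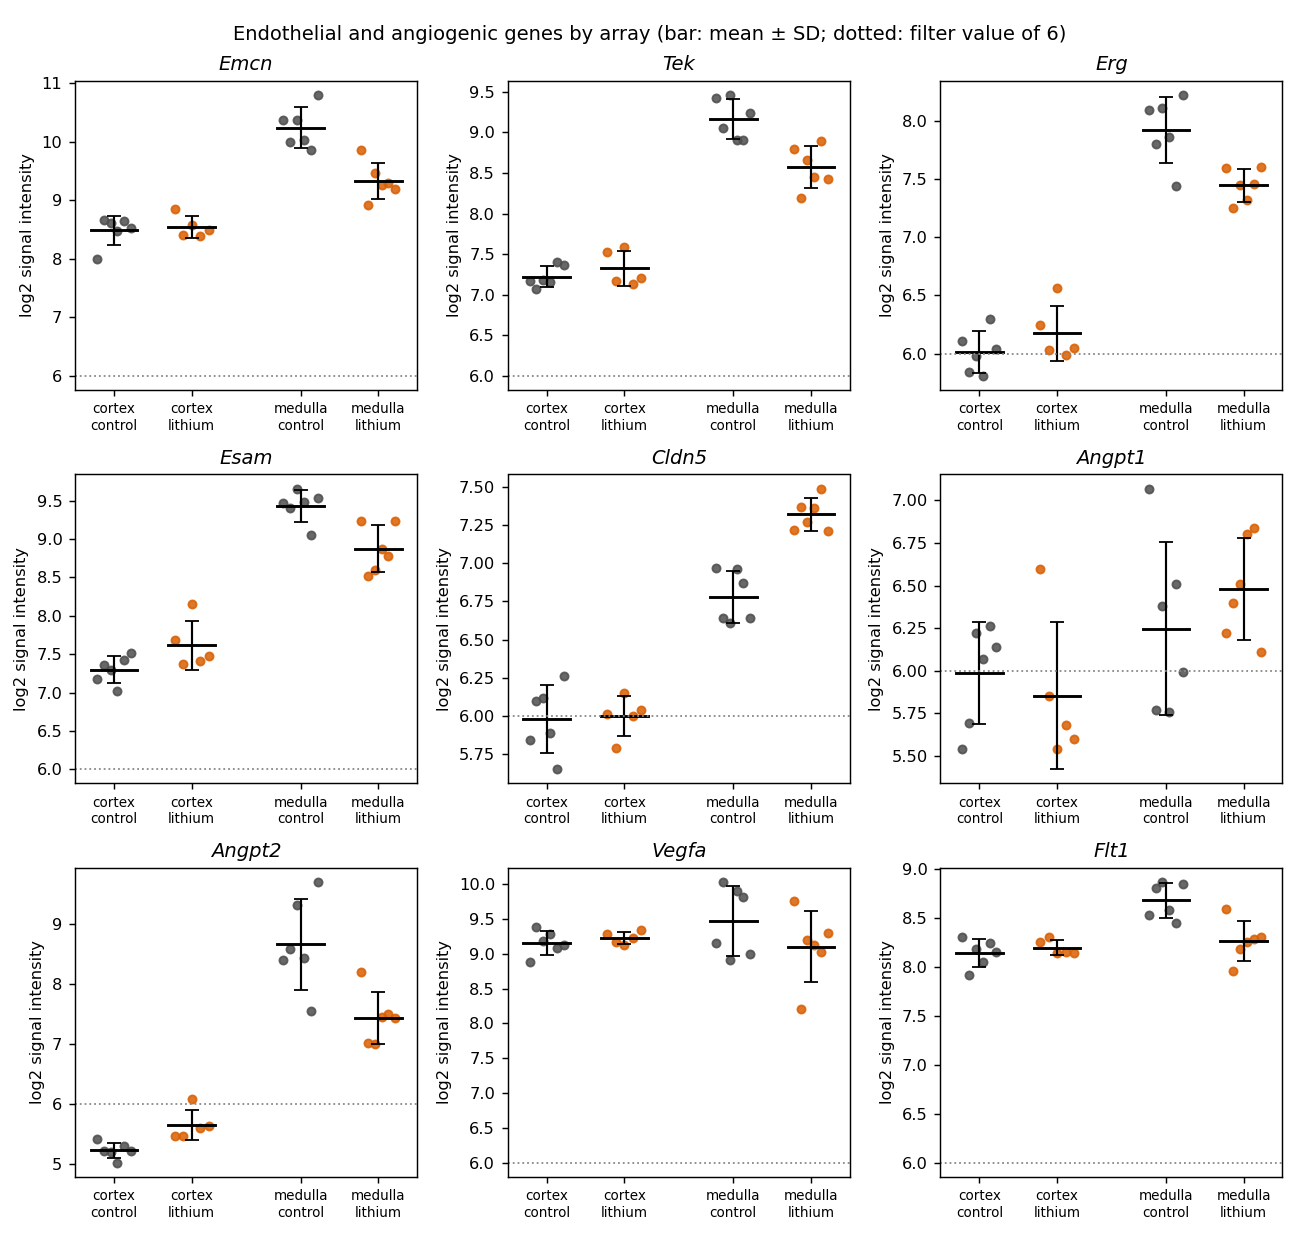
Log2 signal intensity of the 9 genes on every array with its own values, by tissue and diet, with a bar at the mean, whiskers of 1 SD, a vertical axis for each gene and a dotted line at the filter value of 6. In medulla the lithium arrays lie below the controls for Tek and above them for Cldn5 with no overlap.

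Emcn encodes endomucin, a sialomucin on the surface of capillary and venous endothelium. In control medulla its log2 signal ran from 9.86 through a median of 10.21 to 10.80, and in lithium-treated medulla from 8.92 through 9.28 to 9.86. Of the lithium arrays, 5 of 6 lay below every control array, and the exception was animal 6, which at 9.86 lay level with the lowest control, animal 29. The means were 10.24 ± 0.35 (SD, n = 6) in controls and 9.33 ± 0.31 (SD, n = 6) in lithium-treated rats. The difference was -0.91 (SE 0.19, 95% interval -1.33 to -0.49, limma adjusted p = 0.0462), and within the 3 scan groups it was -0.80, -0.85 and -1.08. The call rested on single arrays: on leaving out each of the 12 in turn the adjusted p ran from 0.0106 to 0.127 and stayed under the threshold in 2 of 12 cases, while the difference stayed between -1.04 and -0.77.

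Cldn5 encodes claudin-5, the tight junction protein of endothelium, and was the only one of the 9 genes that passed as higher. Control medulla gave 6.61, 6.75 and 6.97 as lowest, median and highest log2 signal, and lithium-treated medulla 7.21, 7.32 and 7.49. Every lithium array lay above every control array, as for 2.12% of all clusters. The means were 6.78 ± 0.17 and 7.32 ± 0.11 (SD, n = 6 each), the difference 0.54 (SE 0.10, 95% interval 0.31 to 0.76, limma adjusted p = 0.0337). Its direction was the same in each scan group, at 0.49, 0.53 and 0.60. With 1 array left out at a time the difference stayed between 0.50 and 0.59 and the adjusted p between 0.0199 and 0.106, under the threshold in 3 of 12 cases.

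Esam encodes an adhesion molecule of endothelial tight junctions. Its medullary log2 signal ran from 9.05 through 9.48 to 9.66 in controls and from 8.52 through 8.83 to 9.24 in lithium-treated rats. The lithium arrays of animals 6 and 22, both at 9.24, overlapped the controls, and the other 4 lay below all of them. The difference between means of 9.43 ± 0.21 and 8.88 ± 0.31 (SD, n = 6 each) was -0.56 (SE 0.16, 95% interval -0.90 to -0.21), with an adjusted p of 0.101 in limma and 0.0376 without the scan groups.

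Erg, the ETS factor described above, gave 7.44, 7.98 and 8.22 in control medulla as lowest, median and highest log2 signal and 7.25, 7.46 and 7.60 in lithium-treated medulla. Control animal 29, at 7.44, lay among the lithium arrays, and the 5 other controls lay above all of them. The means were 7.92 ± 0.29 and 7.44 ± 0.14 (SD, n = 6 each) and the difference -0.48 (SE 0.14, 95% interval -0.78 to -0.17, limma adjusted p = 0.111, and 0.0413 without the scan groups).

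Tek encodes TIE2, the angiopoietin receptor. Its log2 signal ran from 8.90 through 9.15 to 9.46 in control medulla and from 8.19 through 8.55 to 8.89 in lithium-treated medulla, so all 6 lithium arrays lay below all 6 controls. Such a gap was found for 1.6% of all clusters in this direction, and here the margin between the nearest arrays, lithium animal 21 and control animal 16, was narrow. The means were 9.17 ± 0.24 and 8.57 ± 0.26 (SD, n = 6 each). The difference of -0.60 (SE 0.15, 95% interval -0.93 to -0.26), a 1.51-fold lower signal, had an adjusted p of 0.0769 in limma and 0.0252 without the scan groups.

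Of the ligands of TIE2, Angpt2 had the largest difference of the 9 genes and also the largest SE. The control medulla arrays gave 7.55, 8.40, 8.43, 8.59, 9.31 and 9.70, and the lithium arrays 7.01, 7.02, 7.44, 7.45, 7.51 and 8.21. The control of animal 29 lay among the lithium arrays, lithium animal 6 lay close to the middle controls, and the 2 highest arrays were the controls of animals 30 and 15. The means were 8.66 ± 0.76 and 7.44 ± 0.44 (SD, n = 6 each), and the difference was -1.22 (SE 0.34, 95% interval -1.96 to -0.48), a 2.33-fold lower signal. Its adjusted p was 0.0983 in limma and 0.0388 without the scan groups. The difference was negative in each scan group, at -0.88, -1.64 and -1.15.

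Angpt1, the ligand that activates TIE2, had a difference within the spread between arrays. Its medullary log2 signal ran from 5.76 through 6.18 to 7.07 in controls and from 6.11 through 6.46 to 6.84 in lithium-treated rats, so all lithium arrays lay within the range of the controls. The difference was 0.23 (SE 0.23, 95% interval -0.28 to 0.74, limma adjusted p = 0.604), and its sign varied between scan groups, at -0.11, 0.59 and 0.22. The interval leaves room for a lower signal of 0.28 or a higher one of 0.74.

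Vegfa, the growth factor made largely by tubular epithelium and podocytes, ran from 8.91 through 9.49 to 10.03 in control medulla and from 8.20 through 9.16 to 9.76 in lithium-treated medulla. Its controls were 8.91, 9.0 and 9.16 for animals 15, 30 and 1 and 9.82, 9.90 and 10.03 for animals 29, 16 and 13, and 5 of the 6 lithium arrays lay within their range. The difference was -0.37 (SE 0.28, 95% interval -0.99 to 0.24, limma adjusted p = 0.486).

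Flt1, which encodes a receptor for this factor and is expressed by endothelium, ran from 8.45 through 8.69 to 8.87 in control medulla and from 7.96 through 8.28 to 8.59 in lithium-treated medulla. Again lithium animal 6, at 8.59, was the exception, and the other 5 lithium arrays lay below every control. The difference between means of 8.68 ± 0.19 and 8.27 ± 0.20 (SD, n = 6 each) was -0.42 (SE 0.13, 95% interval -0.69 to -0.14), with an adjusted p of 0.116 in limma and 0.0433 without the scan groups.

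The genes thus did not all behave alike, and 7 of 9 had a negative difference in medulla, where 51.6% of all clusters did. These 7 (Emcn, Tek, Erg, Esam, Angpt2, Vegfa and Flt1) were lower in lithium-treated medulla within each of the 3 scan groups, as were 26.4% of all clusters, and Cldn5 was higher within each, as were 22.8%. The median difference of the 9 genes was -0.48, beside -0.01 for all clusters. The genes were named with earlier results of these data known, so these counts describe them and are not independent evidence.

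Single animals decided how many of these genes passed. Without lithium animal 6, whose values lay nearest the controls for Emcn, Angpt2 and Flt1, 6 of 9 passed (Emcn -1.04, Tek -0.65, Esam -0.65, Angpt2 -1.41, Flt1 -0.50 and Cldn5 0.56), against 6.66% of all clusters. Without control animal 29 the count was 4 (Emcn, Erg, Angpt2 and Cldn5), without control animal 1 it was 1 (Cldn5), and without any other array it was 0. The shares of all clusters for these fits are not given here, so the counts only describe the 9 genes. The medulla controls of animals 15 and 30 stood apart in the marker lists given further below. Without both of them the count was 0, when 0.373% of 15829 clusters passed. The difference was then -0.74 (SE 0.25) for Angpt2, -0.71 (SE 0.175) for Emcn and 0.45 (SE 0.11) for Cldn5.

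In cortex the difference was smaller in size than in medulla for each of the 9 genes, and none passed. Of 8 genes tested, 0 passed in limma, 0 passed without the scan groups in the fit, and 0 lay at an unadjusted p under 0.05, where 0.574% of 13766 clusters passed the adjusted test, 2.09% passed without the scan groups and 7.54% lay at an unadjusted p under 0.05. The median difference of the 8 genes was 0.06, beside 0.01 for all clusters.

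Among the surface and junction genes, Emcn in cortex ran from 8.0 through 8.57 to 8.66 in controls and measured 8.39, 8.41, 8.50, 8.57 and 8.86 in lithium-treated rats. The groups overlapped, with the lowest array a control (animal 1) and the highest a lithium array (animal 6), and the difference was 0.05 (SE 0.14, 95% interval -0.25 to 0.36). Esam ran from 7.02 through 7.32 to 7.51 in controls and measured 7.37, 7.41, 7.47, 7.68 and 8.15 in lithium-treated rats, a difference of 0.32 (SE 0.15, 95% interval -0.02 to 0.65, limma adjusted p = 0.682). The highest of these was animal 19. Cldn5 lay close to the filter value, from 5.65 to 6.26 in controls and from 5.79 to 6.15 in lithium-treated rats, and its difference was 0.02 (SE 0.12, 95% interval -0.25 to 0.29).

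The receptor and factor genes also overlapped in cortex. Tek gave a difference of 0.11 (95% interval -0.15 to 0.37), Erg one of 0.16 (95% interval -0.13 to 0.45) and Flt1 one of 0.05 (95% interval -0.15 to 0.26). Vegfa ran from 9.12 to 9.34 in lithium-treated rats, against 8.88 to 9.38 in controls, and differed by 0.07 (95% interval -0.16 to 0.30). Angpt1 ran from 5.54 to 6.26 in controls and from 5.54 to 6.60 in lithium-treated rats, with a difference of -0.13 (95% interval -0.59 to 0.33). On leaving out each array this ran from -0.50 (without lithium animal 6, adjusted p = 0.0978) to -0.04 (without lithium animal 19). All of their adjusted p in limma lay between 0.822 and 0.926.

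Angpt2 was low in cortex and did not pass the filter, since only 1 of 12 cortex arrays reached a log2 value of 6. Controls measured 5.03, 5.20, 5.23, 5.23, 5.30 and 5.42 and lithium-treated rats 5.47, 5.47, 5.61, 5.64 and 6.09. All 5 lithium arrays lay above all 6 controls, as did 1.85% of the clusters tested, in the opposite direction to medulla, by a difference of 0.42 (SE 0.13, 95% interval 0.14 to 0.70). In a limma fit of all 28894 clusters without the filter, its unadjusted p was 0.00645 and its adjusted p 0.479, so it did not pass. All but 1 of these values lay below the medians of the cortex arrays, which were 5.75 to 5.83.

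**Figure D2:**
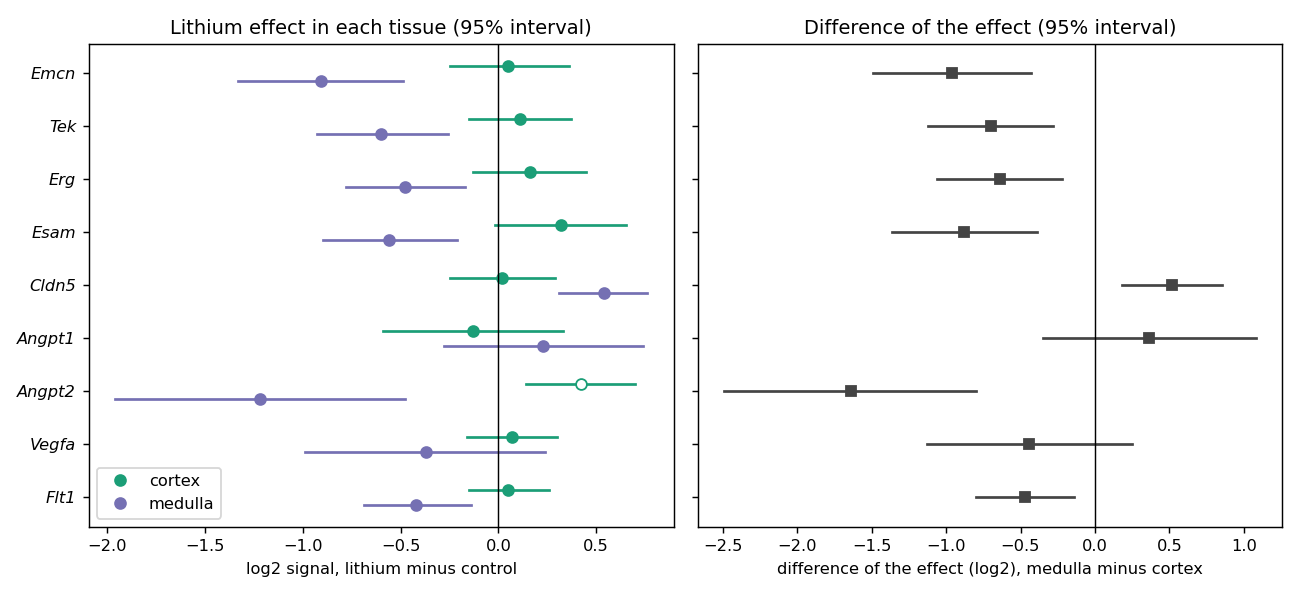
Left, difference in log2 signal between lithium-treated and control rats in cortex (green) and medulla (purple) for the 9 genes, with 95% intervals, and right, the medulla difference minus the cortex difference (the open circle marks Angpt2 in cortex, which did not pass the filter). The interval lies on 1 side of 0 in medulla for 7 genes (Emcn, Tek, Erg, Esam, Angpt2 and Flt1 below 0, Cldn5 above) and in cortex for Angpt2.

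Whether the effect of lithium differed between the tissues was tested with limma over all 24 arrays, and 0 of 9 genes passed after adjustment, where 0.0915% of 16388 clusters did. At an unadjusted p under 0.05 there were 7 genes, 6 with a more negative difference in medulla (7.37% of all clusters) and Cldn5 with a more positive one (4.87%). The largest was that of Angpt2, at -1.64 (SE 0.40, 95% interval -2.49 to -0.80, adjusted p = 0.134), but it entered the test through its medullary signal alone, and its cortical signal lay under the filter. Of the genes that passed the filter in both tissues, Emcn had the largest, at -0.96 (SE 0.25, adjusted p = 0.168), followed by Esam at -0.88 (SE 0.23, adjusted p = 0.168), Tek at -0.70 (SE 0.20, adjusted p = 0.214) and Erg at -0.64 (SE 0.20, adjusted p = 0.254). Cldn5 gave 0.52 (SE 0.16, adjusted p = 0.245), Flt1 -0.47, Vegfa -0.44 and Angpt1 0.36.

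Without the scan groups in the fit, 6 of the 9 tissue differences passed (Emcn, Esam, Tek, Erg and Cldn5, and Angpt2, which entered the test through medulla alone), against 2.18% of all clusters (1.2% more negative in medulla and 0.976% more positive). That fit counted the cortex array of animal 17 as an animal of its own. With each animal as a replicate block over the 11 animals that had their own values in both tissues, 0 of 9 passed, and the values were -1.54 for Angpt2, -0.86 for Emcn and 0.51 for Cldn5.

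Levels in the tissues are set side by side without a test, because the array medians were higher in medulla (6.12 to 6.22) than in cortex (5.75 to 5.83). Every control medulla array lay above every control cortex array for Emcn, Tek, Erg, Esam, Cldn5, Angpt2 and Flt1. The share of all clusters that did so was not counted, so this only describes the levels of these genes. The gap between control means was widest for Angpt2, at 8.66 in medulla and 5.24 in cortex, and narrower for Esam (9.43 and 7.30), Tek (9.17 and 7.22), Erg (7.92 and 6.01) and Emcn (10.24 and 8.49). Cldn5 (6.78 and 5.98) and Flt1 (8.68 and 8.14) were separated by less than a log2 unit. Vegfa (9.47 and 9.16) and Angpt1 (6.25 and 5.99) overlapped between tissues.

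The other genes of the VEGF and angiopoietin pathways and the wider endothelial lists did not pass in either tissue. Among 6 further VEGF ligands and receptors tested in medulla, 0 passed in limma and 2 lay at an unadjusted p under 0.05, 1 higher and 1 lower, where 9.09% and 10.5% of all clusters lay. These were Vegfc, the lymphatic growth factor, with a difference of 0.26 (adjusted p = 0.245), and Pgf, placental growth factor, with a difference of -1.09 (adjusted p = 0.153). Of 3 further genes of the angiopoietin and Tie group, 0 passed and 0 lay at an unadjusted p under 0.05. Their median differences in medulla were -0.15 and -0.09.

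The wider list of endothelial genes had a median near that of all clusters in medulla. Of 17 pan-endothelial genes tested in medulla, 0 passed, 3 lay at an unadjusted p under 0.05 (2 higher and 1 lower, against 9.09% and 10.5% of all clusters), and their median difference was 0.07, against -0.48 for the 9 genes and -0.01 for all clusters. Cd34, a surface sialomucin of capillaries, gave -0.51 (adjusted p = 0.146), while Cd93, a receptor of endothelial cells, gave 0.64 (adjusted p = 0.0527) and Sox17, an arterial transcription factor, gave 0.28 (adjusted p = 0.205). A number of common endothelial markers, among them Pecam1, Vwf, Eng and Ptprb, were not analysed here.

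Of 12 genes of glomerular, arterial and venous endothelium in medulla, 0 passed and 2 lay in each direction at an unadjusted p under 0.05. Plat, tissue plasminogen activator, gave -1.19 (adjusted p = 0.0914) and Plvap, the protein of fenestral diaphragms, gave -0.87 (adjusted p = 0.118), whereas Gja5, an arterial connexin, gave 0.33 (adjusted p = 0.192). Of 16 angiogenesis regulators, 0 passed and again 2 lay in each direction at an unadjusted p under 0.05. Esm1, a product of endothelial tip cells, gave -0.89 (adjusted p = 0.119) and Timp3, a metalloproteinase inhibitor that blocks VEGF binding, gave -0.70 (adjusted p = 0.0818). The Notch ligand Dll4 gave 0.74 (adjusted p = 0.177) and Notch1 gave 0.37 (adjusted p = 0.179).

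Genes of the hypoxia response, a pathway known to induce Vegfa, had a median difference of -0.35 in medulla over 12 genes, of which 0 passed and 4 were lower at an unadjusted p under 0.05, against 10.5% of all clusters. They were Slc2a1, the glucose transporter GLUT1 (-0.58, adjusted p = 0.0759), Hif1a, the oxygen-regulated transcription factor (-0.50, adjusted p = 0.0827), the glycolytic enzyme gene Pgk1 (-0.42, adjusted p = 0.118) and Vhl, which directs the degradation of that factor (-0.27, adjusted p = 0.205). Among 4 lymphatic genes 0 passed and the median was -0.38, with Prox1 at -0.98 (adjusted p = 0.078). Among 10 pericyte and smooth muscle genes 0 passed, with a median of 0.03. Tagln, of contractile cells, gave 0.80 (adjusted p = 0.0751), Des, desmin, gave 0.52 (adjusted p = 0.113), Pdgfrb gave -0.41 (adjusted p = 0.248) and Kcnj8, a pericyte channel, gave -0.34 (adjusted p = 0.248).

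The fit without scan groups called more of these genes. In medulla Cd93, Tagln and Des then passed as higher and Plat, Plvap, Timp3, Hif1a, Slc2a1, Pgk1 and Prox1 as lower. Of all clusters in medulla, 3.33% then passed as higher and 3.24% as lower. In cortex Efnb2 and Dll4 passed as higher and Adm as lower, where 2.09% of all clusters passed in either direction. The p-values of this fit are too small, and in cortex it counts the array of animal 17.

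Lithium animal 6 bore on these lists too. Without its array, when 2.89% of all clusters passed as higher and 3.76% as lower, 3 pan-endothelial genes passed in medulla (Cd34 lower, Cd93 and Sox17 higher). Plat, Esm1 and Timp3 also passed, all lower. Of the hypoxia genes 3 passed, all lower, namely Slc2a1, Pgk1 and Bnip3.

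**Figure D3:**
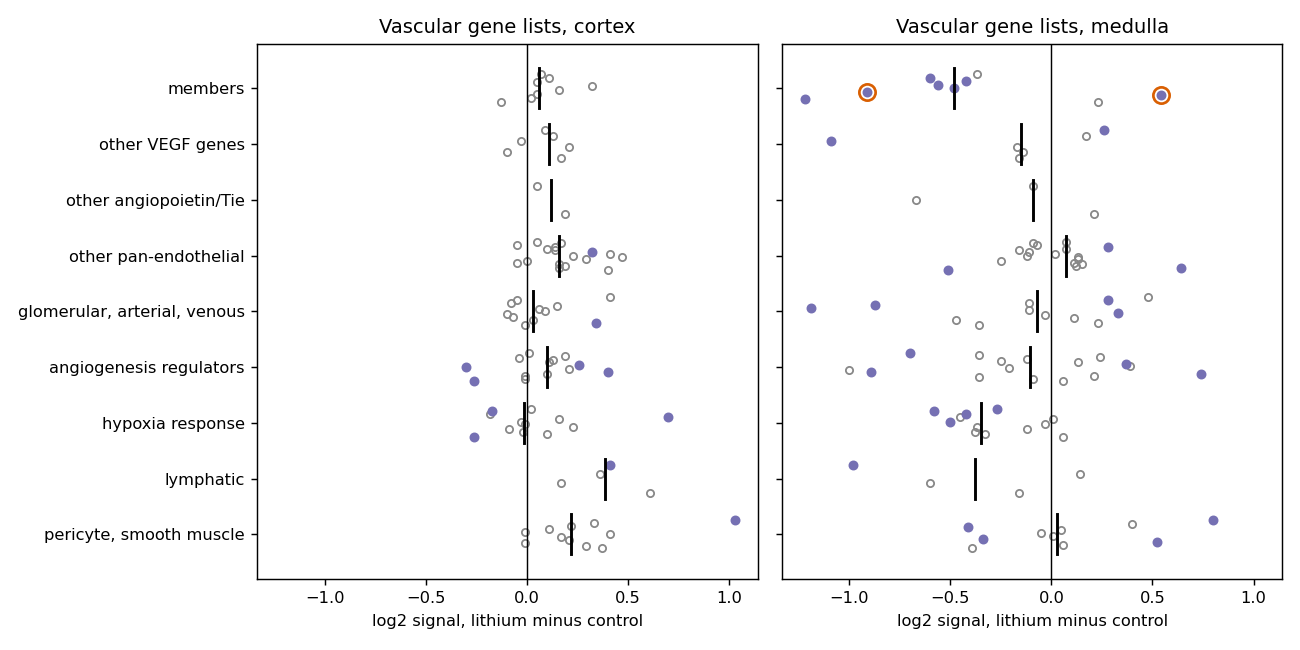
Difference in log2 signal between lithium-treated and control rats for each gene of the vascular lists, in cortex (left) and medulla (right), with a short black bar at each list's median. Filled points lie at an unadjusted p under 0.05 and ringed points passed the adjusted test, which in medulla are Emcn and Cldn5 in the top row and none below it.

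In cortex the vascular lists had medians between -0.02 (hypoxia) and 0.38 (4 lymphatic genes), and 0 of their genes passed in limma, with lithium animal 19 included. Without it the lymphatic median was 0.05, that of the pan-endothelial genes 0.04 and that of the pericyte and smooth muscle genes -0.04. For the 17 pan-endothelial genes the median was 0.16, with Nos3, endothelial nitric oxide synthase, at 0.32 (adjusted p = 0.6), or 0.19 without animal 19. Efnb2, an arterial ephrin, gave 0.34 (adjusted p = 0.234) and Dll4 gave 0.40 (adjusted p = 0.113), the latter also positive in medulla. Fgf1 gave -0.30 (adjusted p = 0.552) and Adm, adrenomedullin, -0.26 (adjusted p = 0.377). Of the hypoxia genes, Pfkfb3 gave 0.70 (adjusted p = 0.536), or 0.39 without animal 19, and Slc2a1 -0.17 (adjusted p = 0.631).

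The cortex array of lithium animal 19 stood apart in these lists. Its mean log2 signal was 8.27 over the lymphatic genes, 8.04 over the pericyte and smooth muscle genes and 7.32 over the pan-endothelial genes, against at most 7.01, 6.92 and 6.80 on the other arrays with their own values. The largest cortical values among the lithium arrays of Esam (8.15), Erg (6.56), Tek (7.59), Cldn5 (6.15) and Angpt2 (6.09) came from this array. Without it the difference was 0.17 for Esam, 0.05 for Erg, 0.03 for Tek and -0.02 for Cldn5, and 0.30 (SE 0.0912, adjusted p = 0.485) for Angpt2 in the fit without the filter. Tagln gave 1.03 (adjusted p = 0.451) with this array and 0.65 without it, and Pdpn 0.41 (adjusted p = 0.603) and 0.23. The same array also had the highest fibroblast mean, at 9.19 against at most 8.12 on the other arrays with their own values, and the highest leukocyte mean, at 8.57 against at most 7.89. Its means over proximal tubule markers (10.22) and markers of distal convoluted tubule and thick ascending limb (8.46) were the lowest of the cortex arrays. With this array included, Aqp4 passed as higher and Aqp2, Scnn1b, Scnn1g and Hsd11b2 as lower in cortex, of 9 collecting duct principal cell markers. Of 8 papilla and thin limb markers, Cldn4 and Krt19 passed as higher in cortex. Across all clusters in cortex 0.574% passed. Without this array the same genes passed except Scnn1b, against 0.644% of all clusters. The part of these markers in the result was not tested.

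Markers of other cell types moved with diet in medulla beside the 9 genes, and their part in the result was not tested. Intercalated cell markers were higher in lithium-treated medulla, with 3 of 8 past the threshold (Atp6v1g3, Slc4a9 and Oxgr1), all 8 differences above 0 and a median of 1.75. Their mean log2 signal ran from 6.41 to 9.21 in controls and from 9.39 to 10.35 in lithium-treated rats, without overlap, and their summed signal from 782 to 8030 and from 6720 to 15200 on the linear scale, with overlap. Of the 7 leukocyte markers 0 had a difference below 0 and the median was 0.68, and 2 passed as higher (Cd68 and Cd3e). Across all clusters 0.83% passed as higher. The leukocyte means ran from 6.42 to 7.88 in controls and from 7.72 to 8.34 in lithium-treated rats. Their summed signals ran from 897 to 3690 and from 2690 to 4710. Among 10 markers of papilla and thin limb, Krt19 rose by 2.65 and the other 9 did not pass, with a median of -0.50 and means of 9.13 to 10.13 in controls and 9.25 to 9.61 in lithium-treated rats, and summed signals of 10700 to 18300 and 9720 to 11800. All 10 proximal tubule markers and all 7 markers of thick ascending limb and distal convoluted tubule had negative differences and 0 passed, with medians of -0.61 and -0.73. Without lithium animal 6, Slc34a1 (-1.29, adjusted p = 0.0397), Slc22a6 (-0.77, adjusted p = 0.022) and Slc12a3 (-0.81, adjusted p = 0.0227) of these passed. The proximal tubule means ran from 7.64 to 9.15 in controls and from 6.96 to 8.35 in lithium-treated rats, and those of thick ascending limb and distal convoluted tubule from 7.44 to 10.86 and from 6.28 to 10.11. The 7 podocyte markers had a median of 0.03, with 3 differences below 0 and 1 marker higher at an unadjusted p under 0.05. Of these 7, only Podxl, podocalyxin, which endothelium also makes, passed, and it fell by 1.01 (adjusted p = 0.0344).

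Without control animals 15 and 30 together, when 0.373% of 15829 clusters passed, intercalated cell markers had a median of 0.91 with 4 of 8 past the threshold, all higher. The leukocyte median was then 0.30 with 0 of 7 past it, and Podxl, at -0.77 (adjusted p = 0.0863), did not pass. The hypoxia genes had a median of -0.16 over 11 genes, the proximal tubule markers one of -0.83 and those of thick ascending limb and distal convoluted tubule one of -1.50. The median of the 9 endothelial and angiogenic genes was -0.46, and 7 of 9 differences were negative as before.

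The marker lists also show how the medulla arrays differed within the control group. Control animals 30 and 15 had the lowest intercalated cell means (6.41 and 7.39) and the lowest leukocyte means (6.42 and 6.84) of all 12 arrays, and the highest papilla and thin limb means (10.13 and 9.92). They also had the highest hypoxia means (9.25 and 9.02) and the highest Angpt2 (9.70 and 9.31). Control animal 29 had the lowest papilla and thin limb mean (9.13), the highest proximal tubule mean (9.15) and, at 7.55, the lowest Angpt2 of the controls. Proximal tubule means were 6.96 to 9.15 in medulla and 10.22 to 11.01 in cortex, which is the order that the tissue labels call for.

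**Figure D4:**
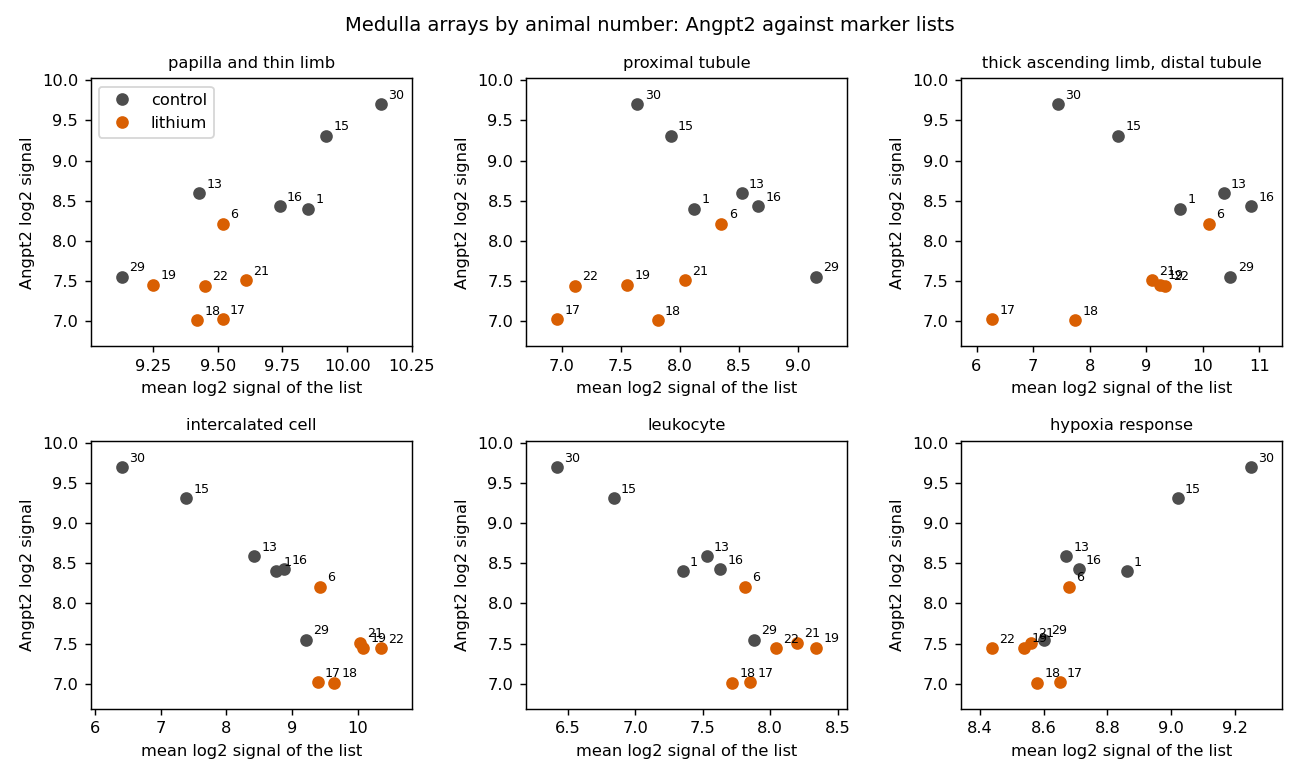
Log2 signal of Angpt2 in the 12 medulla arrays against the mean log2 signal of 6 marker lists, with the animal number beside each point (grey controls, orange lithium-treated). Control animals 30 and 15 lie at the high end of Angpt2, papilla and thin limb and hypoxia and at the low end of the intercalated cell and leukocyte lists. Control animal 29 lies among the lithium arrays for Angpt2, but not on every marker list.

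The 9 genes varied together in part once the means of diet, tissue and scan group had been taken out. Over the 24 arrays, which share the labelling and the removal of scan date and of which the cortex array of animal 17 carries no variation of its own, Pearson's r of these deviations was 0.77 for Erg with Esam and 0.73 for Tek with Erg and for Erg with Angpt2. It was 0.71 for Angpt2 with Flt1 and 0.63 for Emcn with Tek. Cldn5 had r between -0.57 (with Flt1) and 0.21 (with Angpt1), and Vegfa had r between -0.27 and 0.14 with the others.

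Of all genes with a symbol, the one most like each member in these deviations was found by the same r. These were Hivep1 for Emcn (r = 0.92), Klhl13 for Tek (0.88), Prelp for Erg (0.88), Ank2 for Esam (0.85) and Trerf1 for Cldn5 (0.73). For Angpt1 it was Chmp4c (0.87), for Angpt2 Kif3c (0.91), for Vegfa Thrb (0.96) and for Flt1 Mak16 (0.84). Each is the highest r out of all genes searched and is given as a description.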

How the data were processed

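The values used were log2 signal intensities of 28894 transcript clusters on 24 arrays, which the authors deposited after processing in Partek with RMA background correction, quantiles, a log transform and median polish, an analysis of variance that took out scan date, and averaging of probe sets. The submitters' notes also name rn4. The methods name both exon and gene arrays. Taking out scan date shrinks the spread left in such values, and the dates themselves could not be used. The scan groups were recovered from directions without residual variance, by animal {1, 6, 13, 17}, {15, 16, 18, 19} and {21, 22, 29, 30} in medulla and likewise in cortex, where animal 17 stood alone, and the recovery was tested on simulated data.

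Platform annotation gave 15097 clusters 1 symbol, 323 several and 13474 none, and each of the 9 genes had 1 cluster. In each tissue the filter of the methods (log2 signal no less than 6 on 4 or more of the 12 arrays) left 13766 in cortex and 16025 in medulla. Diets were compared by limma 3.58.1 in R 4.3.3 with scan group as covariate, and adjusted p (Benjamini-Hochberg over all clusters) under 0.05 counted as passed. The tissue difference was fitted over all 24 arrays with scan group within tissue, for clusters kept in either tissue. The methods' analysis of variance and t-test were run as alternatives at their fold change of 1.5, as were the fits given in the closing section. The number of arrays limits the precision. Whether arrays of a group were separate animals comes from the animal numbers in the labels.

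Cortex and medulla of an animal share its number. Over 11 animals, the correlation of their deviations from the group means across clusters ran from -0.0867 to 0.438 and was over 0.1 in 6. The genes, the gene lists and the rule for naming genes (all 9 genes, and in each list those past the threshold and up to 4 with the largest difference at an unadjusted p under 0.05) were chosen with earlier results of these data known. Promoters came from RefSeq GRCr8. Tables and figures were made in Python 3.11.15 with numpy 2.4.6, pandas 2.3.3 and matplotlib 3.10.9.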

Additional observations from a re-analysis of the deposited data

Results flagged for a closer look

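Emcn in the cortex of control animal 1 was 8.0 on the log2 scale, far from the other 5 control arrays, which lay between 8.48 and 8.66. Its gap to the nearest of them was 0.724 of the group's range. Without this array the cortical difference of Emcn was -0.04 in place of 0.05, and neither passed.

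Angpt2 in the cortex of lithium animal 19 was 6.09, against 5.47 to 5.64 on the other 4 lithium arrays with their own values, a gap of 0.722 of the range. It is the only cortex array on which Angpt2 reached the filter value of 6. In all, 36 groups of arrays were looked at and 2 held such an array, and chance alone marks about 1 group in 20.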

How the results depend on the processing

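In medulla, 2 of the 9 genes passed, against 1.19% of all clusters, and 7 passed without scan group in the fit, against 6.56%. The methods' t-test after Benjamini-Hochberg also gave 7. At the methods' own threshold (unadjusted p and a fold over 1.5), their analysis of variance and t-test gave 3 each, all lower. The shares of all clusters under the methods' tests are not given here, so these counts only describe the 9 genes. The count was 1 without the filter on low values, and 0 without control animals 15 and 30 together, when 0.373% of all clusters passed. That alternative, and the gene list values without arrays, were chosen after seeing the data. On leaving out each array the count ran from 0 to 6. It was 6 without lithium animal 6 (6.66% of all clusters), 4 without control animal 29 and 1 without control animal 1. Values stay shaped by the authors' removal of scan date after an array is left out. For the tissue difference 0 genes passed (0.0915% of all clusters), and 6 passed without scan group (2.18%). On leaving out each array 0 to 3 passed (3 without the medulla of lithium animal 6 and 1 without that of control animal 29). With each animal as a replicate block 0 passed, with or without scan group. In cortex the count was 0 under every alternative run. The cause of these shifts was not tested.

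In cortex, the Emcn difference of 0.05 ran from -0.10 to 0.10 on leaving out each array, with a change of sign without control animal 1 and without lithium animal 6, and that of Cldn5, 0.02, ran from -0.073 to 0.10. No other difference changed sign under the alternatives run. Of 649 values in all, 589 kept their direction and call, 30 gained a call, 24 lost one and 6 changed sign. Repeated quantile normalization, centring on array medians, an intensity trend and a filter at 7 changed no count by more than 1.5 times. No gene had a further cluster to try. Array signal near background limits Angpt2, Cldn5, Erg and Angpt1 in cortex, and Angpt1 in medulla.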
